A study of Homo sapiens with 12 samples.

Results

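VIM, SPARC, FN1, TNC, CCN1, CCN2, TAGLN, AXL, CAV1 and THBS1 encode proteins that mesenchymal cells use to build their cytoskeleton and to secrete, bind and sense extracellular matrix. They were picked by name, as the transcript clusters whose platform gene symbol is one of these 10, and each gene had 1 cluster, so 10 of the 67528 clusters on the array are described. SW480 and HT-29 are established cell lines of human colorectal adenocarcinoma, and each is 1 line. Cells of both were kept for 72 h in medium with 10000 ng/mL folic acid (FA, the synthetic form of vitamin B9) or in FA-free medium (0 ng/mL, untreated), and total RNA of each group was read on 3 Human Transcriptome Array 2.0 chips. The 4 groups were therefore FA-treated SW480, untreated SW480, FA-treated HT-29 and untreated HT-29, 12 arrays in all. FA was dissolved in NaOH and the untreated arrays are labelled only as non-treated, so FA and its solvent cannot be told apart. The cultures came from wells seeded in triplicate and are labelled as biological replicates. No source used here says whether replicates were separate cultures from the start, so the tests weigh a difference only against the variation among these samples. All values are log2 signals, and every difference is a difference of mean log2 signals. The precision is limited by 3 arrays per group. In bulk RNA, fewer cells that make a transcript and less of it per cell cannot be told apart.

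In epithelial cancers a part of the tumor cells can take on mesenchymal features. Vimentin filaments then join or replace keratins, the cells lay down their own fibronectin-rich matrix, and contact with that matrix is read out through integrins and the actin cytoskeleton. Several of the genes described here are known outputs of transcription factors that respond to this tension, among them TEAD factors with their co-activators YAP and TAZ, and serum response factor (SRF) with its co-activators MRTF.

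One array stood apart. The median log2 signal over all clusters was 4.75 on replicate 3 of untreated HT-29 and between 4.30 and 4.40 on the other HT-29 arrays. Its Pearson correlation with the other HT-29 arrays across clusters was between 0.944 and 0.954. This array held the highest HT-29 value of 6 of the 10 genes and the lowest of 2, CCN2 and THBS1. Among the SW480 arrays, replicate 2 of untreated SW480 held the lowest value of the line for 6 of the 10 genes. Colon epithelial markers averaged between 8.01 and 8.15 on the SW480 arrays and between 9.56 and 10.1 on the HT-29 arrays. KRT8 averaged 16.77 in FA-treated SW480 and 16.72 in untreated SW480, while KRT20 and LGALS4 were low in SW480 (3.71 and 3.86 with FA, 3.78 and 3.97 without) beside HT-29 (13.44 and 9.92 with FA, 13.16 and 9.64 without). The 12 markers did not go 1 way. At an adjusted p under 0.05 in limma, 2 were higher and 8 lower in SW480 with FA, and 2 and 7 without. KRT19 read 13.04 to 13.51 in SW480 and 10.51 to 11.59 in HT-29, and CDX2 5.15 to 5.69 and 4.44 to 4.61. CDX1, CDH17 and GPA33 were low in both lines (3.69 to 4.82). The means of 8 fibroblast markers stayed between 4.02 and 4.36 on all arrays, those of 4 endothelial markers between 3.85 and 4.30, and those of 3 leukocyte markers between 3.87 and 4.36.

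The lines differed in every one of the 10 genes, with or without FA. At 10000 ng/mL, 7 genes (VIM, FN1, AXL, SPARC, CCN1, CAV1 and TNC) were higher in SW480 than in HT-29 and 3 (CCN2, TAGLN and THBS1) were lower, all with an adjusted p under 0.05 in limma. The same 7 and the same 3 passed at 0 ng/mL. Such differences were common on the array. Of all clusters, 26% were higher and 15.1% lower in SW480 at 10000 ng/mL, and 24.7% were higher and 18% lower at 0 ng/mL. In none of the 10 genes did the arrays of SW480 and HT-29 overlap. Over all clusters, SW480 lay wholly above HT-29 in 40.3% and wholly below it in 27.6% with FA, against 27.2% and 22.6% without FA. The median over the 10 genes was 1.77 with FA and 1.78 without, while the median over all clusters was 0.07 with FA and 0.01 without. The median absolute difference was 1.77 with FA and 1.78 without over the 10 genes, and 0.33 with FA and 0.34 without over all clusters.

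**Figure D1:**
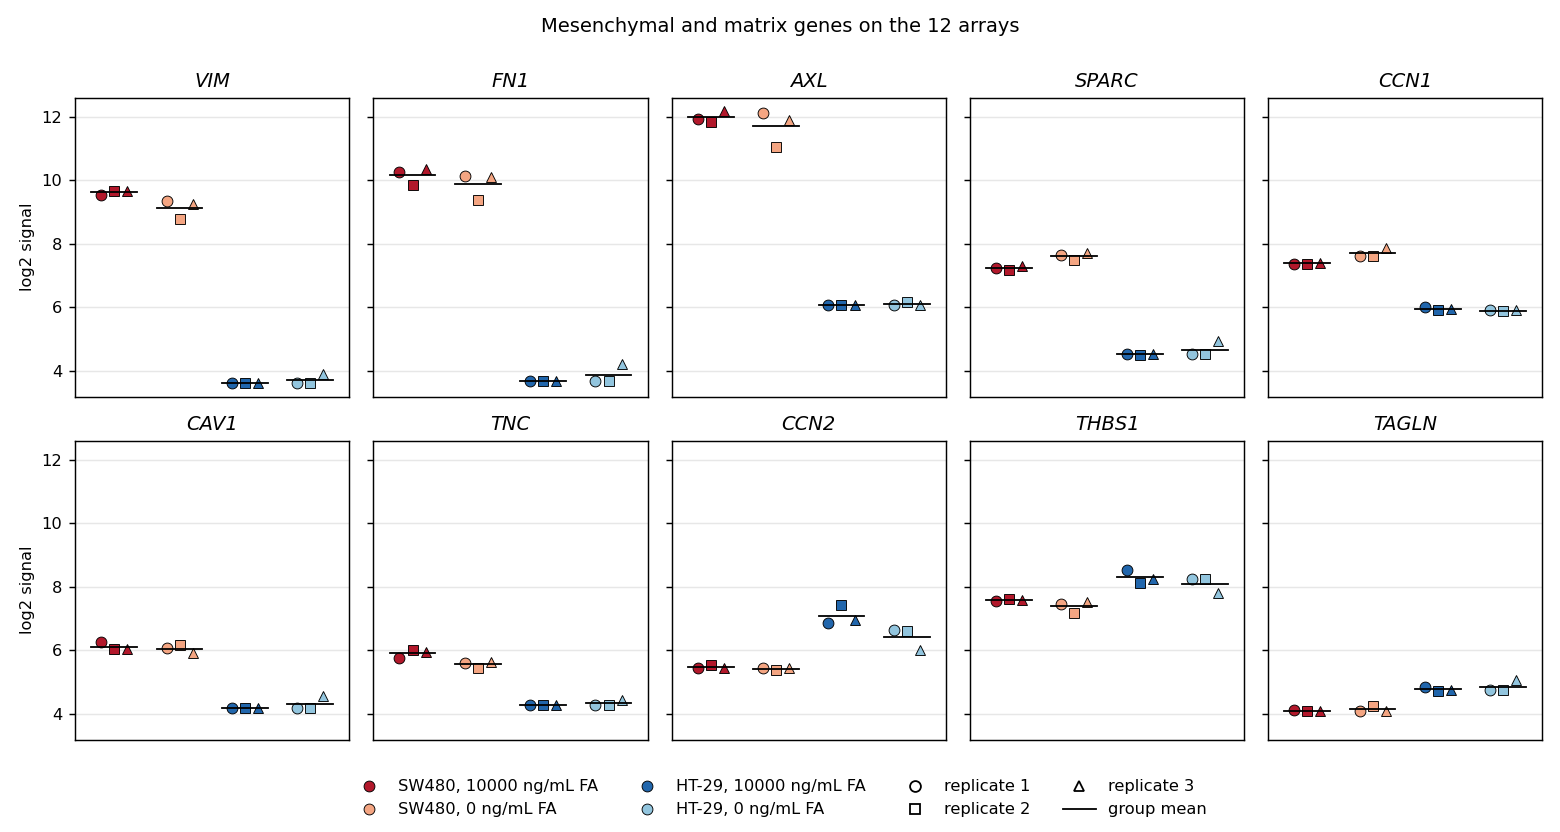
Log2 signal of the 10 genes on each of the 12 arrays, with FA-treated SW480, untreated SW480, FA-treated HT-29 and untreated HT-29 next to each other in each panel. Symbols mark the replicate number and lines the group means. The first 7 genes lie higher in SW480 and the last 3 lie lower, and the HT-29 symbols of VIM, FN1, CAV1 and TNC sit on a single value except on replicate 3 of the untreated group.

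VIM encodes vimentin, the intermediate filament protein of mesenchymal cells. It read 9.55, 9.67 and 9.65 in FA-treated SW480 and 9.36, 8.79 and 9.26 in untreated SW480. HT-29 read 3.62 on each of the 3 FA-treated arrays, and 3.62, 3.62 and 3.89 on the untreated arrays. The lowest SW480 array thus lay far above the highest HT-29 array. The difference between the lines was 6.00 ± 0.14 with FA (SE, n = 3 each; limma, adjusted p = 1.1e-09) and 5.43 ± 0.14 without (adjusted p = 1.94e-09). Only 0.144% of all clusters differed as much between the FA-treated lines and 0.204% between the untreated lines.

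TAGLN encodes transgelin, an actin-binding protein of smooth muscle and a classical SRF target. It read 4.13, 4.09 and 4.09 in FA-treated SW480 and 4.09, 4.25 and 4.09 in untreated SW480, against 4.86, 4.73 and 4.75 in FA-treated HT-29 and 4.75, 4.75 and 5.06 in untreated HT-29. The highest SW480 value stayed below the lowest HT-29 value. TAGLN was lower in SW480 by a log2 difference of -0.68 ± 0.09 with FA (adjusted p = 0.000209) and -0.71 ± 0.09 without (adjusted p = 0.000149). Its SW480 readings lie within the range of markers of other cell types, and its HT-29 readings are low as well.

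Among the matrix proteins, FN1 encodes fibronectin, the glycoprotein that integrins assemble into fibrils. It read 10.27, 9.86 and 10.35 in FA-treated SW480 and 10.13, 9.37 and 10.10 in untreated SW480, against 3.69 on each FA-treated HT-29 array and 3.69, 3.69 and 4.21 in untreated HT-29. No SW480 array came near an HT-29 array, although SW480 itself spread over about a log2 unit, with untreated replicate 2 at the low end. The difference was 6.47 ± 0.22 with FA (adjusted p = 1.34e-08) and 6.00 ± 0.22 without (adjusted p = 2.25e-08). Among all clusters, 0.104% differed as much between the FA-treated lines and 0.126% between the untreated lines.

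SPARC encodes osteonectin, a collagen-binding matricellular protein. Its values were 7.23, 7.17 and 7.29 in FA-treated SW480 and 7.64, 7.50 and 7.72 in untreated SW480, against 4.54, 4.50 and 4.54 in FA-treated HT-29 and 4.54, 4.54 and 4.93 in untreated HT-29. In limma, SPARC was higher in SW480 by 2.70 ± 0.11 with FA (6.51-fold, adjusted p = 3.14e-08) and 2.95 ± 0.11 without (7.73-fold, adjusted p = 1.79e-08). The HT-29 readings of SPARC lay only slightly above those of markers of other cell types, so the size of these folds is uncertain. The test of its change with FA is given with the FA effects.

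TNC encodes tenascin-C, an oligomeric glycoprotein of developing and injured tissue and of tumor stroma. It read 5.75, 6.01 and 5.96 in FA-treated SW480 and 5.60, 5.44 and 5.63 in untreated SW480, against 4.28 on each FA-treated HT-29 array and 4.28, 4.28 and 4.43 in untreated HT-29. No SW480 array overlapped an HT-29 array. The difference was 1.63 ± 0.08 with FA (adjusted p = 2.11e-07) and 1.23 ± 0.08 without (adjusted p = 1.62e-06).

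THBS1 encodes thrombospondin-1, a matricellular protein that can activate latent TGF-beta and restrains angiogenesis. Unlike the other 3 matrix genes, it was lower in SW480. It read 7.55, 7.62 and 7.59 in FA-treated SW480 and 7.46, 7.19 and 7.52 in untreated SW480, against 8.53, 8.12 and 8.25 in FA-treated HT-29 and 8.25, 8.25 and 7.80 in untreated HT-29. The lowest HT-29 value, on the array that stood apart, was still above every SW480 value. The difference was -0.71 ± 0.15 with FA (1.64-fold; adjusted p = 0.00336) and -0.71 ± 0.15 without (1.64-fold; adjusted p = 0.00338).

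CCN1 (also known as CYR61) and CCN2 (also known as CTGF) encode secreted, integrin-binding matricellular proteins of the CCN family. Both are textbook outputs of YAP and TEAD. The pair went in opposite directions. CCN1 read 7.37, 7.38 and 7.41 in FA-treated SW480 and 7.62, 7.62 and 7.88 in untreated SW480, against 6.01, 5.91 and 5.96 in FA-treated HT-29 and 5.91, 5.88 and 5.91 in untreated HT-29. CCN2 read 5.44, 5.55 and 5.45 in FA-treated SW480 and 5.44, 5.39 and 5.44 in untreated SW480, against 6.85, 7.42 and 6.94 in FA-treated HT-29 and 6.63, 6.62 and 6.00 in untreated HT-29. All CCN1 values of SW480 lay above those of HT-29, and all CCN2 values lay below. CCN1 was higher in SW480 by 1.43 ± 0.07 with FA (2.69-fold; adjusted p = 2.18e-07) and 1.81 ± 0.07 without (3.50-fold; adjusted p = 4.12e-08). CCN2 differed by -1.59 ± 0.18 with FA (3.01-fold lower; adjusted p = 7.32e-05) and -0.99 ± 0.18 without (1.99-fold lower; adjusted p = 0.00166).

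AXL encodes a receptor tyrosine kinase of the TAM family that binds the ligand GAS6. It read 11.93, 11.83 and 12.17 in FA-treated SW480 and 12.13, 11.05 and 11.91 in untreated SW480, against 6.06 on each FA-treated HT-29 array and 6.06, 6.16 and 6.06 in untreated HT-29. The lines were wide apart, and untreated replicate 2 was the lowest SW480 array here too. The difference was 5.92 ± 0.23 with FA (60.4-fold; adjusted p = 2.82e-08) and 5.60 ± 0.23 without (48.6-fold; adjusted p = 4.12e-08).

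CAV1 encodes caveolin-1, the coat protein of caveolae, the small membrane pits that flatten under tension. It read 6.26, 6.03 and 6.03 in FA-treated SW480 and 6.08, 6.18 and 5.91 in untreated SW480, against 4.19 on each FA-treated HT-29 array and 4.19, 4.19 and 4.55 in untreated HT-29. SW480 was above HT-29 on every array, by 1.92 ± 0.11 with FA (adjusted p = 5.75e-07) and 1.75 ± 0.11 without (adjusted p = 1.16e-06).

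**Figure D2:**
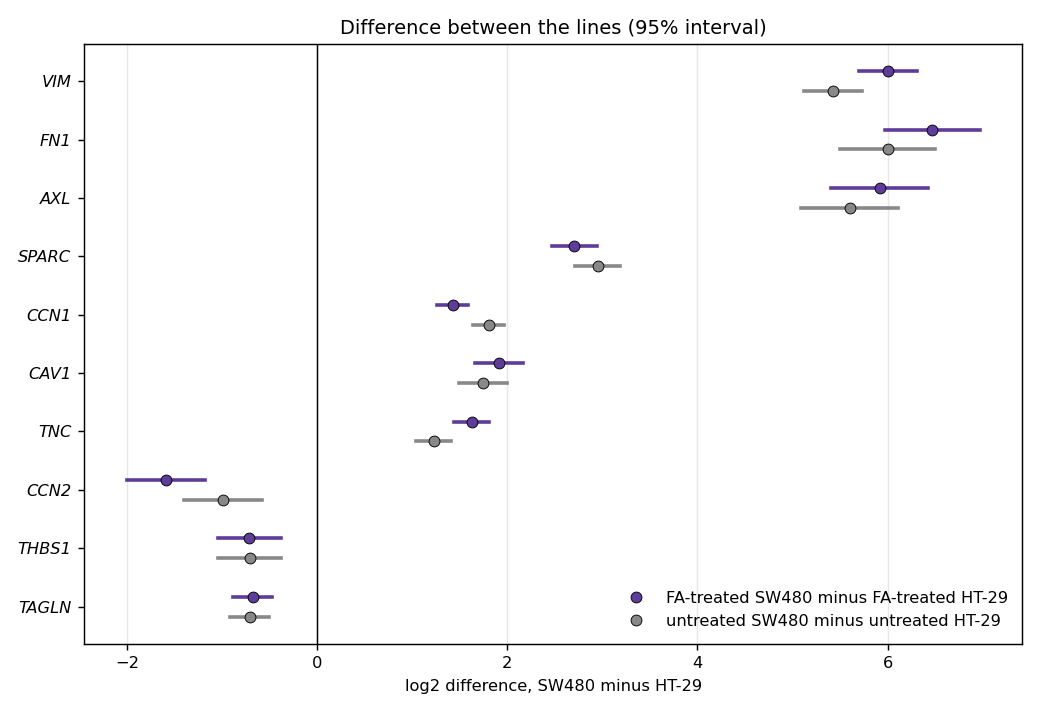
Log2 difference between SW480 and HT-29 for the 10 genes, FA-treated lines above untreated lines in each row, with 95% intervals from limma. The intervals lie right of 0 for 7 genes, and left of 0 for CCN2, THBS1 and TAGLN.

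VIM, FN1, TNC, AXL and CAV1 had a single repeated value on 5 of the 6 HT-29 arrays, all 3 FA-treated ones included. Such repeats were not particular to them. A single value on 5 or more of the 6 arrays of a line was found in 8.39% of all clusters in HT-29 and in 9.13% in SW480, and 0 of the 10 genes showed it in SW480. An equal value on the 3 FA-treated HT-29 arrays was found in 12.3% of clusters. The within-group spread of these 5 genes in HT-29 is therefore 0 or rests on 1 array, and limma set their standard errors from all 4 groups. No detection call per array was used.

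The 15 markers of fibroblasts, endothelium and leukocytes serve as a guide to low readings. Their group means ran from 3.50 to 4.41 in FA-treated HT-29, from 3.61 to 4.43 in untreated HT-29, from 3.003 to 4.95 in FA-treated SW480 and from 3.29 to 5.03 in untreated SW480. In FA-treated HT-29, 14 of the 15 were at or above VIM, 13 at or above FN1, 4 at or above CAV1 and 2 at or above TNC. In untreated HT-29 these counts were 14, 11, 3 and 3. In SW480, 7 of the 15 were at or above TAGLN, with FA and without. HT-29 signals of VIM, FN1, CAV1 and TNC, and SW480 signals of TAGLN, thus lay within the range of these markers. CAV1 and TNC lay in its upper part. The cultures are not labelled to hold the cell types of these markers. Differences of VIM, FN1, CAV1, TNC and TAGLN between the lines are given as measured on the log2 scale. No fold is given for them, since the lower reading may be background. The other 5 genes read above all 15 markers in every group, SPARC in HT-29 only slightly (4.53 with FA and 4.67 without). TAGLN in HT-29 (4.78 with FA and 4.85 without) was also only slightly above them.

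To see what the genes share beyond their level, the promoter windows of RefSeq (build GRCh38.p14, 250 bases before to 50 after each gene start) were searched on both strands. There were 11 windows for 8 of the 10 genes, and none for CCN1 and TAGLN. The letters searched were GGAATG, the core that TEAD factors bind, TGANTCA, the AP-1 site, TATAAA, the TATA box, and the CArG box of SRF. GGAATG was found in 4 of the 11 windows, those of CCN2, THBS1, SPARC and the second start of AXL. Of 35116 RefSeq windows, 14% hold it. CCN2 had 3 copies, at 169, 104 and 95 bases before the start, and 0.128% of all windows hold 3 or more. THBS1 had 1 copy at 46 bases before the start, SPARC 1 at 17, and AXL 1 at 212. TATAAA was found in the CCN2 window at 32 bases before the start (11.5% of all windows hold it). TGANTCA and the CArG box were found in 0 of the 11 windows (7.71% and 1.29% of all windows). None of this shows that a factor binds there. The 4 windows with GGAATG are shown 5′ to 3′ on the strand of the gene, with the matches in capitals (CATTCC is a match on the opposite strand). They lie at chr6:131951323-131951622 on the minus strand (CCN2), chr15:39580829-39581128 on the plus strand (THBS1), chr5:151686866-151687165 on the minus strand (SPARC) and chr19:41226505-41226804 on the plus strand (AXL).
CCN2: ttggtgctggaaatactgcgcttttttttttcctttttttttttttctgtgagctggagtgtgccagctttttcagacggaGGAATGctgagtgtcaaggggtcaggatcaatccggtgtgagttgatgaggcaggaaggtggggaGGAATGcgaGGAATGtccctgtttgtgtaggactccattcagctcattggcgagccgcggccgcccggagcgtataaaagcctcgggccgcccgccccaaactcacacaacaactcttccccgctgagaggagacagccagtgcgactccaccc
THBS1: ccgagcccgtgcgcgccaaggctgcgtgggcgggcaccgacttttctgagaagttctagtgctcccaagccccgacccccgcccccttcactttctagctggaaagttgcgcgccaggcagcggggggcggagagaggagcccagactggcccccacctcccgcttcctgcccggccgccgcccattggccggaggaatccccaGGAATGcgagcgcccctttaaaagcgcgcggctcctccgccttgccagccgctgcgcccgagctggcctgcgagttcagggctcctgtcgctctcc
SPARC: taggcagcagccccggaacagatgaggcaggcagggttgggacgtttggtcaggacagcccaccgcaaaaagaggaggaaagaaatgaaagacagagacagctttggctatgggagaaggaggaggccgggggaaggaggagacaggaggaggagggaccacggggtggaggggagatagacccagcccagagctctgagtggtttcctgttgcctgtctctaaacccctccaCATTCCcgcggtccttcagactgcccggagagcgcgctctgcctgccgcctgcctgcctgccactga
AXL: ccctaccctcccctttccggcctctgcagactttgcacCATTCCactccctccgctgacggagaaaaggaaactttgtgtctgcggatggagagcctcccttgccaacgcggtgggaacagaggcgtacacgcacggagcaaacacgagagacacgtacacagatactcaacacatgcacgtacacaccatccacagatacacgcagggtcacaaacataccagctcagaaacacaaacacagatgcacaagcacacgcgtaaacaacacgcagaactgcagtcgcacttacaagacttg
Among these 4 genes, SPARC and AXL were higher in SW480 and CCN2 and THBS1 were lower. Whether a match goes with a difference between the lines was not tested.

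In SW480, 0 of the 10 passed limma with adjustment over all clusters, where 4 clusters of 67528 did (0.00592%). At an unadjusted p under 0.05 there were 4 of the 10 (VIM, TNC, SPARC and CCN1), against 4.06% of all clusters. The criteria of the study's methods, an unadjusted p of at most 0.05 with a fold change of at least 1.5, were met by 0 of the 10, against 1.04% of all clusters. The treated arrays lay wholly above the untreated ones for VIM, TNC and THBS1 (2.99% of all clusters) and wholly below them for SPARC and CCN1 (4.85% of all clusters). The median difference over the 10 genes was 0.13, and over all clusters -0.02.

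VIM averaged 9.62 ± 0.06 in FA-treated SW480 and 9.14 ± 0.30 in untreated SW480 (SD, n = 3 each), a difference of 0.49 (95% interval 0.18 to 0.79; limma, adjusted p = 0.955). TNC averaged 5.91 ± 0.14 with FA and 5.56 ± 0.10 without, a difference of 0.35 (0.16 to 0.54; adjusted p = 0.753). Both were higher on every treated array, and neither passed adjustment. SPARC averaged 7.23 ± 0.06 with FA and 7.62 ± 0.11 without, a difference of -0.39 (-0.63 to -0.15; adjusted p = 0.912). CCN1 averaged 7.39 ± 0.02 with FA and 7.71 ± 0.15 without, a difference of -0.32 (-0.48 to -0.16; adjusted p = 0.706). Both were lower on every treated array, and SPARC passed adjustment only when the arrays were weighted by their fit (adjusted p = 0.0341). The estimates of the matrix genes thus did not share a sign within SW480, but without such weights none of them passed adjustment. How many of all clusters passed with such weights is not reported here.

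The other 6 genes had intervals that include 0. FN1 differed by 0.29 (-0.21 to 0.79), AXL by 0.28 (-0.23 to 0.79) and THBS1 by 0.20 (-0.13 to 0.53), while CCN2, CAV1 and TAGLN lay at 0.06, 0.05 and -0.04. The values of FN1 and AXL rested on 1 array. Without replicate 2 of untreated SW480, FN1 differed by 0.045, AXL by -0.04, THBS1 by 0.10 and VIM by 0.31. TNC was then at 0.29 and SPARC at -0.45. The intervals of VIM, FN1, AXL and SPARC reach past a 1.5-fold change, so with 3 arrays per group they do not leave out a change of that size.

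In HT-29, 0 of the 10 genes passed adjustment in limma, as did 0 clusters in all (0%). CCN2 alone had an unadjusted p under 0.05, against 5.44% of all clusters, and CCN2 alone met the criteria of the study's methods, against 1.36%. It was also the only gene whose treated arrays lay wholly above the untreated ones (1.41% of all clusters), and 0 genes lay wholly below (3.84%). CCN2 averaged 7.07 ± 0.31 in FA-treated HT-29 and 6.42 ± 0.36 in untreated HT-29 (SD, n = 3 each), a difference of 0.65 (95% interval 0.24 to 1.06; 1.57-fold; adjusted p = 0.587). The lowest untreated value, 6.00, was that of the array that stood apart. Without it the difference was 0.445, under a 1.5-fold change, and with the arrays weighted by their fit it was 0.37 (adjusted p = 0.0366). For that weighted fit too, the share of all clusters that passed is not reported here.

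The other 9 genes in HT-29 had intervals that include 0. Their differences ran from -0.17 for FN1 to 0.20 for THBS1, and the median over the 10 genes was -0.06, against -0.08 over all clusters. VIM, FN1, TNC and CAV1, which read the same value on the other 5 arrays, lay at -0.09, -0.17, -0.05 and -0.12 with replicate 3 of untreated HT-29 and at 0.00 without it. Centring each array on its median moved every difference in HT-29 by 0.153. The signs of VIM, TNC, CAV1, SPARC, TAGLN and AXL then turned, while that of FN1 did not.

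**Figure D3:**
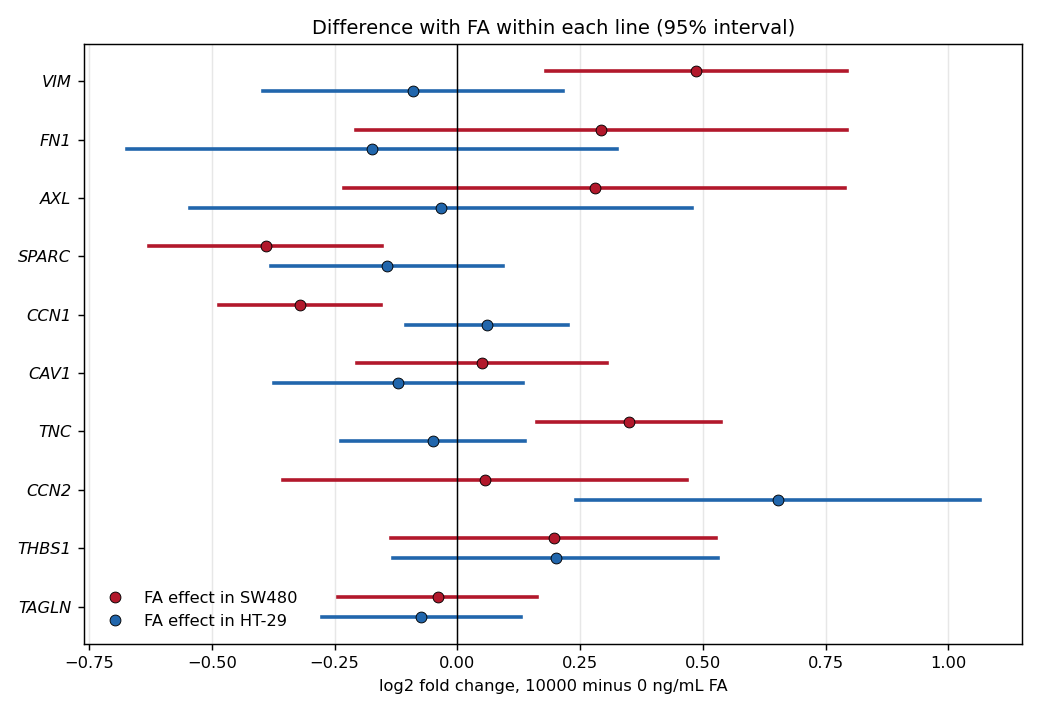
Log2 fold change of the 10 genes with FA within SW480 (upper symbol) and HT-29 (lower symbol), with 95% intervals from limma. Intervals that leave out 0 are those of VIM, TNC, SPARC and CCN1 in SW480 and of CCN2 in HT-29, and none of these 5 values passed adjustment over all clusters.

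Whether FA acted differently in the lines was tested as the difference of the FA effects, SW480 minus HT-29. It passed adjustment in 0 of the 10 genes and in 0 clusters in all (0%). An unadjusted p under 0.05 was found for 4 genes, against 3.29% of all clusters. These were CCN1 (-0.38, 95% interval -0.61 to -0.15), TNC (0.40, 0.14 to 0.66), VIM (0.58, 0.14 to 1.01) and CCN2 (-0.60, -1.18 to -0.02), each with an adjusted p of 0.939 in limma. CCN2 also met the criteria of the study's methods (1.53% of all clusters). Without replicate 3 of untreated HT-29 its difference was -0.39, under a 1.5-fold change, and these criteria were no longer met. SPARC differed by -0.25 (-0.58 to 0.09), an interval that includes 0. Without replicate 3 of untreated HT-29 it differed by -0.38. The FA effects and the differences between the lines use the same arrays and are not independent of each other.

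**Figure D4:**
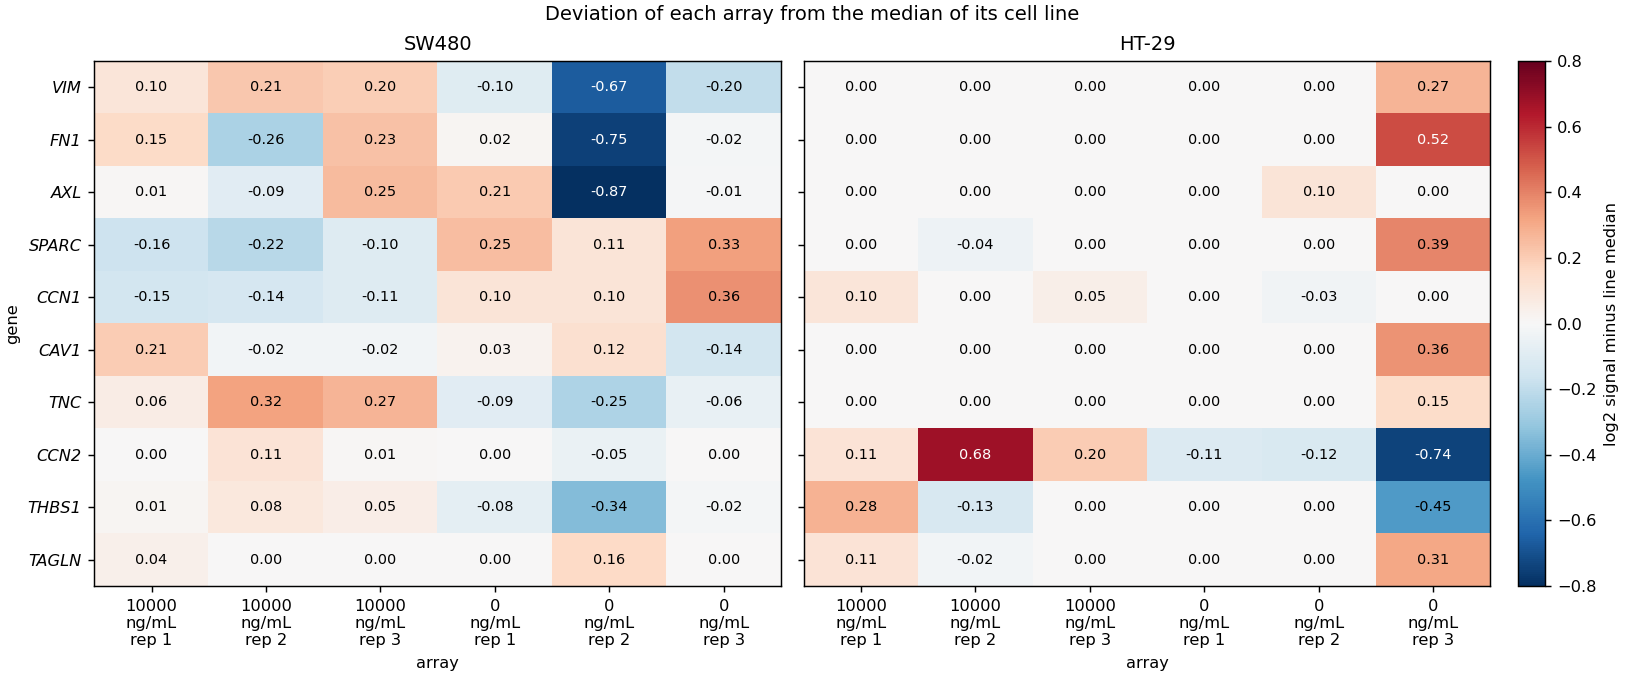
Log2 signal of each gene on each array minus the median of its cell line, FA-treated arrays left of untreated arrays. Replicate 2 of untreated SW480 is low for FN1, AXL, VIM, THBS1 and TNC, and replicate 3 of untreated HT-29 is high for FN1, SPARC, CAV1, TAGLN, VIM and TNC and low for CCN2 and THBS1.

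The genes around these 10 were read from 10 lists of 114 measured genes, none of which holds one of the 10. In the comparison of the FA-treated lines 79 of the 114 passed adjustment, and in that of the untreated lines 72 did. The background of all clusters is that given above. In the FA comparisons 0 of the 114 passed in limma in SW480, in HT-29 or in the difference of the effects. At an unadjusted p under 0.05 there were 10 in SW480, 9 in HT-29 and 7 in the difference.

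YAP and TEAD targets other than CCN1, CCN2 and AXL were mostly higher in SW480. Of 19 measured, 15 were higher and 1 lower, with FA and without, and their median difference was 1.45 with FA and 1.10 without. ANKRD1, a cardiac ankyrin repeat protein and a standard YAP reporter, averaged 12.47 ± 0.10 in FA-treated SW480 against 3.68 ± 0.05 in FA-treated HT-29, and 12.99 ± 0.14 in untreated SW480 against 3.80 ± 0.25 in untreated HT-29. IGFBP3, an insulin-like growth factor binding protein, differed by 6.65 with FA and 6.37 without. CCN2, lower in SW480, thus stood with the minority of this list.

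SRF and MRTF targets other than TAGLN were also mostly higher in SW480. Of 18 measured, 10 were higher and 5 lower with FA, and 11 were higher and 3 lower without. Leaving out replicate 3 of untreated HT-29 gave 9 higher and 4 lower without FA. The median difference was 0.65 with FA and 1.07 without. ACTA2, smooth muscle actin, differed by 1.24 with FA and 1.21 without, and CALD1, the actin-binding caldesmon, by 2.70 with FA and 2.55 without. ACTN1, the actin cross-linker alpha-actinin, averaged 15.27 ± 0.25 in untreated SW480 and 10.08 ± 0.69 in untreated HT-29. TAGLN read low in both lines, as given above.

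For the matrix genes, the cell surface receptors of fibronectin and thrombospondin were read. Of 8 measured, 3 were higher and 1 lower in SW480, with FA and without, and the median difference was -0.03 with FA and -0.02 without. Without replicate 3 of untreated HT-29, 3 were higher and 3 lower. ITGA5, the alpha chain of the fibronectin receptor, averaged 10.15 ± 0.25 in FA-treated SW480 against 3.89 ± 0.01 in FA-treated HT-29, and 9.83 ± 0.51 in untreated SW480 against 3.98 ± 0.15 in untreated HT-29. SDC4, the heparan sulfate proteoglycan syndecan-4, differed by 5.31 with FA and 5.94 without. ITGB1, the beta chain that pairs with ITGA5, was lower in SW480, by -0.97 with FA and -0.94 without.

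Paralogs of the matricellular genes read low in both lines and moved little. Of 19 other members of the SPARC, thrombospondin, tenascin, CCN and related families, 2 were higher and 2 lower in SW480 with FA, and 1 was higher and 2 lower without. Without replicate 3 of untreated HT-29 these counts were 4 and 6 with FA, and 4 and 3 without. The median difference was -0.04 with FA and -0.13 without. SPP1, osteopontin, differed by -0.51 with FA and -0.59 without, THBS3 by -0.29 in both, and CCN6 by 0.49 with FA and 0.35 without. These 3 stayed under a log2 unit in either comparison. Group means of the 19 genes ran from 3.79 to 4.69 in SW480, within the range of the 15 markers of other cell types. In HT-29 they ran from 3.69 to 4.80, where several lay slightly above the highest marker mean (4.41 with FA and 4.43 without). Among these were TNN (4.54 with FA and 4.80 without), THBS3 (4.66 in both) and SPP1 (4.43 with FA and 4.56 without). The differences among these paralogs may still be differences of background, since their SW480 readings lay within the range of the markers.

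Among TGF-beta induced genes, 6 of 10 were higher and 2 lower in SW480 with FA, and 5 were higher and 2 lower without (median 1.31 with FA, 1.29 without). BAMBI, a TGF-beta pseudoreceptor, differed by 4.63 with FA and 4.89 without. LTBP2, a latent TGF-beta binding protein of the matrix, differed by 3.01 with FA and 2.96 without, and TGFB1, the cytokine itself, by 2.35 with FA and 2.21 without.

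Of the TAM family and its ligands beside AXL, 2 of 4 were higher and 1 lower in SW480 with FA and without, with a median difference of 0.24 with FA and 0.33 without. GAS6, the ligand of AXL, averaged 7.01 ± 0.03 in FA-treated SW480 against 4.30 in FA-treated HT-29, and 7.05 ± 0.02 in untreated SW480 against 4.42 ± 0.24 in untreated HT-29. PROS1, protein S, a ligand of the TAM receptors TYRO3 and MERTK, was lower in SW480, by -2.05 with FA and -1.18 without. The receptor and GAS6 were thus both higher in SW480.

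Of 7 other caveolar genes, 2 were higher and 3 lower in SW480 with FA, and 3 were higher and 3 lower without (median -0.11 with FA, -0.03 without). CAVIN1, the cavin that caveolae need to form, averaged 8.23 ± 0.13 in FA-treated SW480 against 5.72 ± 0.09 in FA-treated HT-29, and 8.15 ± 0.47 in untreated SW480 against 5.82 ± 0.09 in untreated HT-29. CAVIN3 differed by 1.83 with FA and 1.56 without. EHD2, an ATPase at the neck of caveolae, differed by -1.31 with FA.

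Among intermediate filament genes beside VIM, 5 of 6 were higher and 1 lower in SW480 with FA, and 4 were higher and 0 lower without (median 1.21 with FA, 0.96 without). NES, nestin, differed by 3.01 with FA and 2.89 without, DES, desmin, by 1.63 with FA and 1.60 without, and SYNM, synemin, by 1.62 with FA and 1.43 without. Of 6 genes for transcription factors of epithelial-mesenchymal transition and N-cadherin, 2 were higher and 1 lower in both comparisons (median 0.02 with FA, 0.14 without). ZEB1, a repressor of epithelial genes, averaged 7.77 ± 0.04 in FA-treated SW480 against 4.76 in FA-treated HT-29, and 7.74 in untreated SW480 against 4.92 ± 0.16 in untreated HT-29. SNAI2 differed by 3.21 with FA and 2.56 without, and TWIST1 by -0.25 with FA and -0.36 without. TWIST1 group means ran from 3.90 to 4.26, within the range of the markers of other cell types in every group, so its difference may be one of background. Without replicate 3 of untreated HT-29, 3 of these 6 genes were higher and 1 lower in both comparisons.

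The epithelial counterparts ran mostly the other way. Of 17 measured, 2 were higher and 13 lower in SW480 with FA, and 2 were higher and 10 lower without (3 and 13 in both without replicate 3 of untreated HT-29). Their median difference was -1.02 with FA and -0.74 without. KRT20, a keratin of differentiated intestinal epithelium, differed by -9.73 with FA and -9.38 without. LGALS4, the intestinal lectin galectin-4, differed by -6.07 with FA and -5.67 without, and ESRP1, an epithelial splicing regulator, by -4.04 with FA and -3.58 without. ANKRD1, IGFBP3, ACTA2, CALD1, ITGA5, BAMBI, GAS6 and DES in HT-29 read within the range of the markers of other cell types. So did KRT20 and LGALS4 in SW480. The size of the line differences of these genes is therefore uncertain, since the lower reading may be background.

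**Figure D5:**
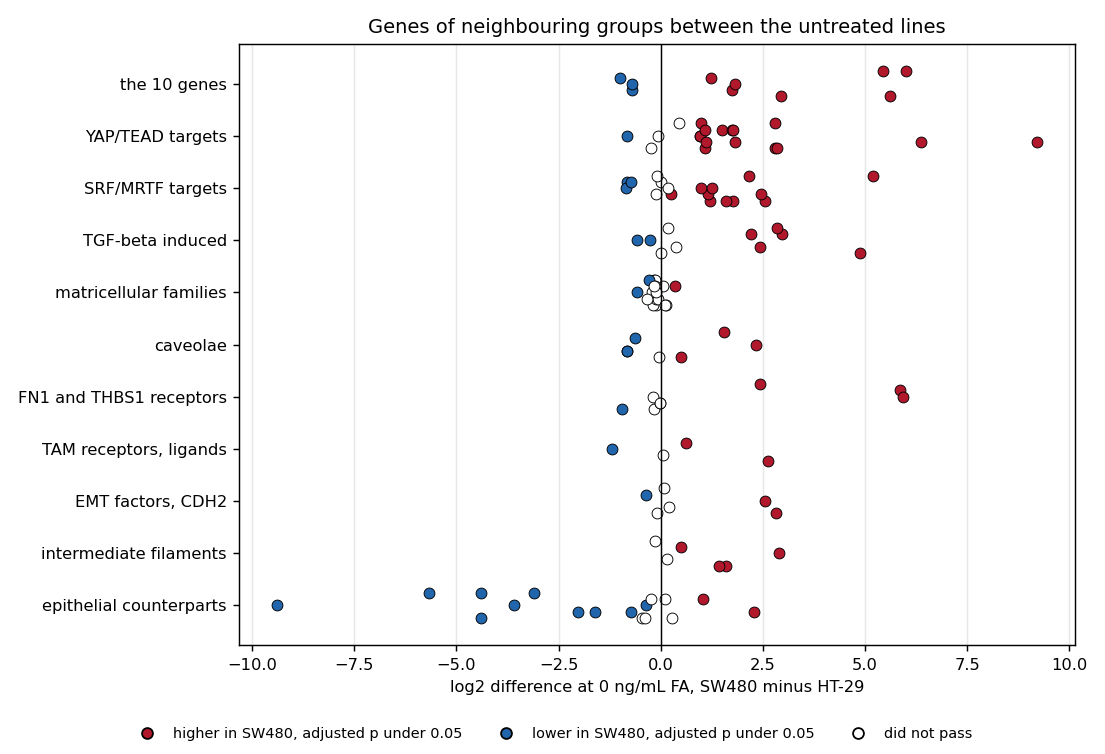
Log2 difference between untreated SW480 and untreated HT-29 for the 10 genes (top row) and for the genes of 10 neighbouring groups, 1 symbol per gene. Filled symbols passed an adjusted p under 0.05, higher or lower in SW480, and open symbols did not. The YAP/TEAD row lies mostly right of 0, the matricellular row close to 0 and the epithelial row mostly left of 0, as far as -9.38 for KRT20.

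The profiles of single genes were also set against those of 22464 other named genes over the 12 arrays, by the root mean square difference of centred log2 values. These arrays fall into 2 lines, so likeness mostly reflects the gap between the lines. The nearest profile to VIM was that of PHLDB2 (0.06), the nearest to FN1 was ITGA5 (0.16) and the nearest to AXL was NKD1 (0.11), with VIM also among the 3 nearest (0.17). SPARC was nearest to NMNAT2 (0.09), CCN1 to GYG2 (0.08) and SHH (0.08), CAV1 to POPDC3 (0.08) and TNC to METTL16 (0.08). Of the genes lower in SW480, CCN2 was nearest to MOB3B (0.10) and CEMIP (0.12), THBS1 to SMURF1 (0.09) and TAGLN to GSX2 (0.03). None of the other 9 genes was among the 3 nearest to CCN2 or CCN1.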

How the data were processed

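The deposited values are log2 signals per transcript cluster, which were taken as they are. According to the authors, SST-RMA in Transcriptome Analysis Console 4.0 subtracted background, normalized across arrays and summarised probes (the labels name RMA). The genome build behind the clusters is not given in the sources used here. All 12 columns entered, with 0 missing values and no filter. Platform annotation gave 1 gene symbol to 23781 clusters, several to 1543 and none to 42204.

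A model of 4 group means was fitted with limma 3.58.1 (R 4.3.3), with 8 residual degrees of freedom and variances moderated across clusters. Benjamini-Hochberg adjustment covered the 67528 clusters. The study's methods used p of 0.05 or less without adjustment together with a 1.5 minimum for the fold change. Python 3.11.15 and matplotlib 3.10.9 drew the figures. The fit was tested on simulated data.

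The 10 genes and all lists were chosen with earlier results of these data known. All 10 genes are described. From each list, up to 3 genes per comparison with the smallest adjusted p under 0.05 are named, and for each of the 10 genes some or all of its 3 nearest profiles. List genes that matched no single-symbol cluster are not reported here. Alternatives were separate fits per line, a variance trend, array weights, a replicate block, a filter on the lowest 33.3% of clusters, quantile normalization, median centring, named clusters only, the mean of a gene's clusters, the methods' criteria and leaving out each array.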

Additional observations from a re-analysis of the deposited data

How the results depend on the processing

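All 10 genes passed in both comparisons of the lines under every alternative run, with the same direction, and leaving out each array in turn gave a count from 10 to 10. The FA comparisons and their difference gave 0 of 10 genes throughout, also when each array was left out (0 to 0), with these exceptions. Array weights gave 1 gene in SW480 (SPARC, -0.43) and 1 in HT-29 (CCN2, 0.37). Their estimation stopped before it converged, and how many of all clusters passed with these weights is not reported here. The authors' criteria gave 1 gene in HT-29 and 1 in the difference of the effects, both times CCN2. Of 1020 values of single genes under an alternative, 986 kept their direction and side of the threshold, 2 passed newly and 32 changed sign, none of which had passed. With array weights TAGLN was at 0.042 in HT-29 and at -0.049 in the difference of the effects, and THBS1 at 0.050 in that difference. With quantile normalization TAGLN was at 0.016 in SW480, at 0.077 in HT-29 and at -0.062 in the difference. In HT-29 it put VIM at 0.036, SPARC at 0.002, TNC at 0.111, AXL at 0.001 and CAV1 at 0.031, and in the difference THBS1 at 0.129. Median centring put TAGLN at 0.013 in SW480, at 0.080 in HT-29 and at -0.067 in the difference, and VIM, SPARC, TNC, AXL and CAV1 in HT-29 at 0.063, 0.010, 0.103, 0.12 and 0.033. When single arrays were left out, TAGLN ran from -0.067 to 0.013 in SW480, from -0.125 to 0.030 in HT-29 and from -0.070 to 0.087 in the difference. AXL then ran from -0.043 to 0.497 in SW480 and from -0.010 to 0.530 in the difference, CAV1 from -0.027 to 0.112 in SW480 and THBS1 from -0.103 to 0.147 in the difference. The cause of these changes was not tested.

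No label says that the replicate numbers pair the samples. Deviations of same-numbered arrays correlated at -0.08, 0.01 and 0.40 in SW480 and at -0.06, 0.16 and -0.02 in HT-29. For arrays of different number the values ran from -0.34 to 0.32 in SW480 and from -0.16 to 0.13 in HT-29. With 3 arrays per group these values cannot settle whether the samples were paired. With a replicate block the counts were 0 in SW480, 0 in HT-29, 0 for the difference and 10 in each comparison of the lines, and VIM differed by 0.49 in SW480. Using the mean of a gene's clusters changed nothing, since each gene has 1. Without detection calls, signal over background could be judged only from markers of other cell types.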
